A study of Mus musculus and Homo sapiens with 14 samples.

Results

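The messenger RNA of 9 genes was followed in mouse and human leukemia cells: the growth factor gene Csf1 and 8 receptor genes, Csf1r, Csf2ra, Csf2rb, Csf2rb2, Csf3r, Il3ra, Kit and Flt3. They were chosen by symbol, as receptors of hematopoietic growth factors and the ligand of 1 of them, and are 9 of the 20682 genes listed in each of the 3 mouse tables. In the human table of 19166 genes, 6 of them are described. CSF2RA and IL3RA lie in the human pseudoautosomal region, where most reads go uncounted, so these genes are described in mouse, and Csf2rb2 is a mouse gene.

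PolyA RNA was sequenced from 14 libraries in 7 groups of 2. RN2 is a mouse acute myeloid leukemia driven by the MLL-AF9 fusion and mutant Nras, and RN2c is RN2 with the Cas9 nuclease. RN2c cells were infected with a lentiviral guide RNA against Sik3 (guides e1 and e3), against Mef2c (guides 1 and 2) or against the Rosa26 locus as a cutting control, and were collected on day 2. RN2 cells, and MOLM-13 cells, a human MLL-AF9 leukemia line, received the salt-inducible kinase (SIK) inhibitor YKL-05-099 or 0.1 percent DMSO for 2 hours, at 350 nM in RN2 and 250 nM in MOLM-13. The MOLM-13 cells of both groups carried an empty vector, and the titles of the RN2 inhibitor libraries also have the word empty. The labels do not say whether infected cells were selected. They also do not tell if the 2 libraries of a group are 2 cultures, and the p-values reflect only how these libraries differ, which can be technical. In the guide groups this spread includes the difference between guides.

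Totals ranged from 13961461 to 24275290 reads per library. Sik3 was 1939 and 1878 normalized counts with sgRosa26 and 1219 and 1169 with sgSik3, and Mef2c was 8395 and 8369 with sgRosa26 and 3892 and 4021 with sgMef2c, so transcript of each target remained. Every one of 8 myeloid markers, among them Ptprc, Spi1, Mpo and Elane, was above the filter in the RN2c and RN2 libraries. Defining markers of B cells (Ms4a1), T and NK cells (Cd3e, Ncr1) and red cells (Hba-a1, Hbb-bs) were listed at 0 in every sgRosa26 and guide library. Other genes of these lists were present: the 4 B cell markers summed to at most 11.5, and the 7 erythroid and megakaryocyte markers to between 199 and 279. Of the 5 T and NK cell markers, Nkg7 passed the filter and was higher with sgSik3 (a mean of 73.7 against 200.4) and with sgMef2c (77.4 against 248), and its part in the results below was not tested.

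Growth factor receptors tell blood progenitors whether to survive, divide and mature. Kit and Flt3 are receptor tyrosine kinases of stem and progenitor cells, bound by stem cell factor and Flt3 ligand, and Csf1r is the receptor tyrosine kinase of monocytes and macrophages, bound by Csf1. The receptors for interleukin-3 (IL-3), GM-CSF and G-CSF have no kinase of their own and signal through Janus kinases and STAT proteins. Il3ra and Csf2ra are the ligand-binding alpha chains for IL-3 and GM-CSF, Csf2rb is the beta chain they share, and Csf2rb2 is a second mouse beta chain that pairs with Il3ra. Csf3r binds G-CSF and drives neutrophil production.

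Csf2rb (chromosome 15, 78325752 to 78353847, plus strand, GRCm38) and Csf2rb2 (chromosome 15, 78282507 to 78305721, minus strand) are neighbouring copies, so how their reads can be told apart matters for their values. Their coding sequences of 2688 and 2634 bases were 95.2% identical over 2628 aligned bases, and the longest identical run was 242 bases. Of the 50-base stretches of the Csf2rb transcript, 18.4% also occur in Csf2rb2, and 19.0% of those of Csf2rb2 occur in Csf2rb. Reads that lie within such stretches cannot be assigned to 1 gene, and how they were counted is not given. With sgRosa26 the mean was 6581 normalized counts for Csf2rb and 1449 for Csf2rb2 in the Sik3 table. Misplaced reads can therefore weigh more on Csf2rb2. The values and calls given below for both genes carry this uncertainty. Among 90-base coding stretches aligned without a gap, the one with the most differing bases is shown, 5′ to 3′, with its 16 differing bases in capitals. It is from the GENCODE annotation of GRCm38 and spans coding bases 308 to 397 of Csf2rb and 311 to 400 of Csf2rb2.
Csf2rb: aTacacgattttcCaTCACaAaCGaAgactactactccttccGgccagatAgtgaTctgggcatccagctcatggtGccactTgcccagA
Csf2rb2: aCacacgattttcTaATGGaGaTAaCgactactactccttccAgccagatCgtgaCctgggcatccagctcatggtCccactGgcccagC

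Csf2ra and Csf3r were the members called higher with both knockout guides, so their upstream sequences are shown, 5′ to 3′ on the gene's strand, from RefSeq on GRCm38.p6. Each runs from 250 bases before the RefSeq start to the last base before any annotated transcript, which is chr19:61228430-61228668 (minus strand) for Csf2ra and chr4:126024409-126024549 (plus strand) for Csf3r. The capitals mark TGACGTCA, the full cyclic AMP response element.
Csf2ra: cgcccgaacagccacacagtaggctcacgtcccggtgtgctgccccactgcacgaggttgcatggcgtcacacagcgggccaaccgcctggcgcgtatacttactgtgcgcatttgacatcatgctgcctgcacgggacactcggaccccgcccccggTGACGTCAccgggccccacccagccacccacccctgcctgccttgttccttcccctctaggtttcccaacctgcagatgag
Csf3r: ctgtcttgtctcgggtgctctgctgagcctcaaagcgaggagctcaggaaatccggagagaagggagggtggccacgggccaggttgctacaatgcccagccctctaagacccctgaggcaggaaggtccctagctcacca

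Short motifs were searched for on both strands in the 250 bases before each RefSeq start. These bases were available for 7 of the 9 members, all but Csf1r and Csf2rb, which were not searched. TGACGTCA stood 92 bases before the Csf2ra start and in 1.55% of all 32851 promoters. GAGGAA, the core bound by the myeloid factor PU.1, was in the windows of 4 members and in 23.3% of all promoters. It stood 14 and 8 bases before the Csf2ra start and 86 before that of Csf3r. These positions lie wholly or partly in the last 11 bases of the Csf2ra window and the last 109 of the Csf3r window. Those bases fall within an annotated transcript and are not shown above. TTGCNNAA, a core of C/EBP sites, was in the Il3ra window and in 9.56% of all promoters, and the MEF2 consensus was in no member's window and in 2.92% of all. These are matches of letters and do not show binding.

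Levels between genes were compared per kilobase (kb) of exon, in control libraries. Csf2ra (chromosome 19, 61223957 to 61228429) was the highest with sgRosa26, at 1833 and 1935 normalized counts per kb in the Sik3 table. Csf2rb followed at 1213 and 1305, and Kit (chromosome 5, 75574916 to 75656722) at 579.7 and 702. Csf2rb2, Il3ra, Csf3r and Csf1r lay between 219 and 313 per kb, and of these neighbours Il3ra (259.8 and 278) and Csf3r (259 and 262) overlapped. Csf1 (chromosome 3, 107741048 to 107760469) stood below them at 119 and 137, and Flt3 (chromosome 5, 147330741 to 147400489) was lowest at 4.91 and 6.17. The GM-CSF receptor chains were thus the most abundant transcripts of the group and Flt3 the least abundant. RN2 cells with DMSO had the same order, from Csf2ra at 872 and 940.3 to Flt3 at 11.8 and 14.8 per kb, and there Csf3r and Csf1r overlapped. The RN2 and RN2c tables were scaled separately, so heights are not compared across them.

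**Figure D1:**
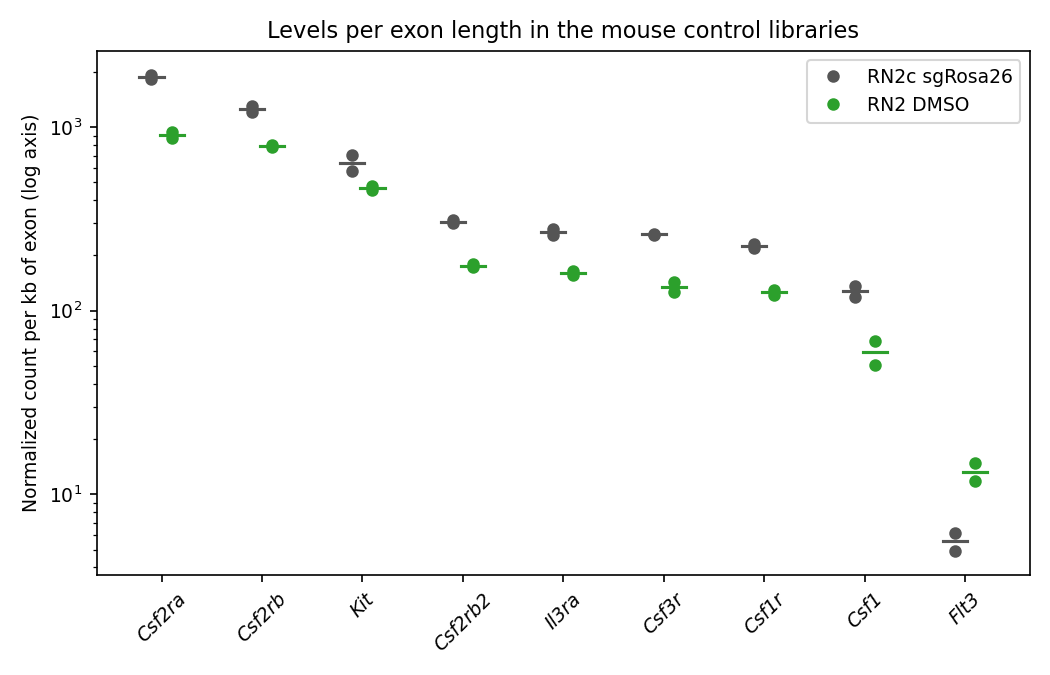
Normalized counts per kb of exon (log axis) of the 9 genes in the 2 sgRosa26 libraries of RN2c (grey) and the 2 DMSO libraries of RN2 (green); points are libraries and bars are group means. Csf2ra and Csf2rb stand highest in both lines, and Flt3 lies lowest, at 4.91 to 6.17 with sgRosa26 and 11.8 to 14.8 with DMSO.

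With sgSik3, most of the genes were higher than with sgRosa26. Of 9 members tested, 7 were higher (Csf1, Csf2ra, Csf2rb, Csf2rb2, Csf3r, Il3ra and Kit) and 1 was lower (Flt3), while Csf1r did not pass the test. With DESeq2, 5 of the 9 were called, as were 3532 of all 10934 genes tested. A gene passed at a Benjamini-Hochberg adjusted p under 0.05 in limma, and 47.8% of all 10934 genes tested did so, 23.9% higher and 23.9% lower. The median log2 fold change of the members was 0.25, against -0.00054 over all genes tested. No member's groups overlapped: 8 had both sgSik3 libraries above both controls, as did 37.4% of all genes, and Flt3 had both below, as did 37.8%.

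With sgMef2c the same genes split. Of 9 tested, Csf2ra and Csf3r were higher and Csf1, Csf1r and Flt3 were lower, while Csf2rb, Csf2rb2, Il3ra and Kit did not pass. Among all 10956 genes tested, 31.4% passed, 16.3% higher and 15.1% lower. The members' median was -0.013 against 0.00016 over all genes. In 3 members both sgMef2c libraries lay above both controls and in 3 both lay below, as did 35.5% and 35% of all genes. Both knockouts were read against the same sgRosa26 libraries, whose recovered reads differed at 0 genes between the tables, so the comparisons are not independent of each other.

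**Figure D2:**
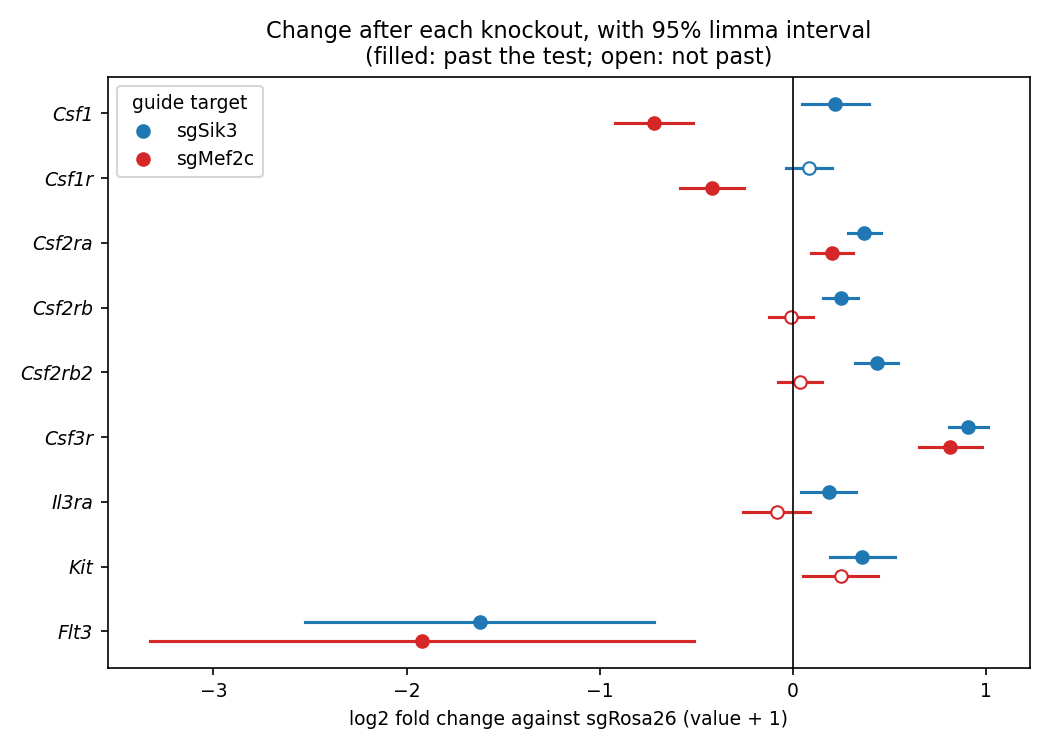
Log2 fold change against sgRosa26 on the log2(value + 1) scale for each gene with sgSik3 (blue) and sgMef2c (red); bars are 95% limma intervals, filled points passed the test and open points did not. Csf3r lies far right for both guides (0.91 and 0.81), Flt3 far left, and Csf1 on opposite sides (0.22 and -0.72).

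The G-CSF receptor gene Csf3r (chromosome 4, 126024550 to 126044440, plus strand) had the largest rise among the members. Its normalized count was 919 and 908 with sgRosa26 and 1728 (e1) and 1699.7 (e3) with sgSik3. Both knockout libraries stood well above both controls, and the guides lay close to each other. The rise was 1.87-fold (log2 fold change 0.91, SE 0.04, limma adjusted p = 1.4e-06). In the Mef2c table Csf3r was 966 and 952 with sgRosa26 and 1579 and 1802 with sgMef2c. Here too all knockout libraries were higher, and the guides were farther apart, 1 below the other by more than the controls differed. The log2 fold change was 0.81 (SE 0.07, limma adjusted p = 0.00058), a 1.76-fold rise. In bulk RNA, more transcript per cell and more cells that carry it cannot be told apart.

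Neutrophil markers moved beside Csf3r. Of 7 neutrophil markers, 7 were higher with sgSik3, and their summed level went from 1482 to 2110 in the control libraries to 8259 to 8619. With sgMef2c, 5 were higher and 1, Cxcr2, was lower, and the sum went from between 1557 and 2212 to between 8661 and 21618. Ngp made up most of these sums, at a mean of 6793 with sgSik3 and 13241 with sgMef2c, whereas the defining marker Ly6g reached a mean of 21.6 and 33.1. Their part in the Csf3r result was not tested.

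The GM-CSF and IL-3 receptor chains rose with sgSik3. Csf2ra, the GM-CSF alpha chain, was 3409.9 and 3599 with sgRosa26 and 4468 and 4587 with sgSik3, a log2 fold change of 0.37 (SE 0.04, limma adjusted p = 6.8e-05). The shared beta chain Csf2rb was 6341 and 6821 with sgRosa26 and 7763 and 7838 with sgSik3 (0.25, SE 0.04, adjusted p = 0.00089). The IL-3-specific beta chain Csf2rb2 was 1417 and 1482 with sgRosa26 and 2022 and 1891 with sgSik3 (0.43, SE 0.05, adjusted p = 0.00011). In these 3 genes the knockout libraries lay above the controls by more than either pair differed within itself, and the calls held in every alternative tried, including each library left out. The IL-3 alpha chain Il3ra (chromosome 14, 14346275 to 14356011) moved less, from 663 and 709 to 799.8 and 759 (0.18, SE 0.06, adjusted p = 0.037). Its call was lost without sgRosa26 replicate 1 (adjusted p = 0.12), e1 (0.23) or e3 (0.081), and with DESeq2 (0.19).

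With sgMef2c, of these 4 chains only Csf2ra passed the test. It was 3584 and 3773 with sgRosa26 and 4119.5 and 4347 with sgMef2c (0.20, SE 0.05, adjusted p = 0.017); without sgRosa26 replicate 1 or sgMef2c guide 2 the adjusted p was 0.093 and 0.075. Csf2rb was 6665 and 7152 with sgRosa26 and 6686 and 7006 with sgMef2c, and its groups overlapped (-0.013, 95% interval -0.13 to 0.10, adjusted p = 0.87). Csf2rb2 was 1489 and 1554 with sgRosa26 and 1531 and 1587 with sgMef2c (0.036, 95% interval -0.080 to 0.15). Il3ra was 697 and 743 with sgRosa26 and 713 and 647 with sgMef2c (-0.084, 95% interval -0.26 to 0.090), so the libraries of both groups were intermixed for these 3 genes.

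Csf1, the macrophage growth factor and the one ligand among the members, was higher with sgSik3 and lower with sgMef2c. With sgRosa26 it was 578 and 665, and with sgSik3 it was 703 and 740.1. The sgSik3 libraries were slightly above the controls (log2 fold change 0.22, SE 0.077, limma adjusted p = 0.043), and the call was lost without sgRosa26 replicate 1 (adjusted p = 0.20), e1 (0.10) or e3 (0.23) and with DESeq2 (0.15). In the Mef2c table Csf1 was 607 and 697 with sgRosa26 and 393 and 395 with sgMef2c. Both sgMef2c libraries lay far below both controls and next to each other, and Csf1 fell to 0.606 of the control level (-0.72, SE 0.09, adjusted p = 0.0015).

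Its receptor gene Csf1r was lower in the sgMef2c cells too. It was 1214 and 1145 with sgRosa26 and 932 and 834 with sgMef2c, a fall to 0.748 of the control (-0.42, SE 0.07, limma adjusted p = 0.0051). With sgSik3 it was 1155 and 1092 in the controls and 1222 and 1160.4 in the knockout libraries, which did not overlap but did not pass the test either (0.084, 95% interval -0.035 to 0.20, adjusted p = 0.22). The sgMef2c falls of Csf1 and Csf1r held in every alternative tried.

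Monocyte and macrophage markers were mostly lower in both knockouts. Of 7, 5 were lower and 1 (Adgre1) higher with sgSik3, and 5 were lower with sgMef2c. Their summed level went from 13903 to 14858 in the controls to 9746 to 9827 with sgSik3, and from 14614 to 15578 to 7879 to 8932 with sgMef2c. Cx3cr1, Ccr2, Cd14, Cd68 and Irf8 were the 5 lower genes with each target. With sgSik3, Csf1 was called higher and Csf1r did not pass, and with sgMef2c both were called lower. The part of these markers in the Csf1 and Csf1r results was not tested.

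Kit, the stem cell factor receptor, was 3045 and 3688 with sgRosa26 and 4206 and 4387 with sgSik3. The controls differed from each other by more than the sgSik3 libraries did, yet both knockout values lay above them (log2 fold change 0.36, SE 0.07, limma adjusted p = 0.0038); without a mean-variance trend the adjusted p was 0.077. With sgMef2c it was 4214 and 4133, against 3201 and 3866 in the controls of that table. This difference did not pass (0.25, 95% interval 0.054 to 0.44, adjusted p = 0.058), passed without sgRosa26 replicate 2 (adjusted p = 0.0062) and passed with DESeq2 (0.027). Of 7 mast cell and basophil genes, a lineage that uses Kit, Tpsb2, Cma1 and Fcer1a were at 0 in every RN2c library. Cpa3 fell and Hdc rose with each target, and Mcpt8 and Ms4a2 did not pass with either. The summed level went from 2767 to 4013 in the controls to 5677 to 5832 with sgSik3, and from 2908 to 4207 to 5686 to 6847 with sgMef2c. Hdc made up most of the knockout sums, at a mean of 5064 with sgSik3 and 5714 with sgMef2c. The part of these 7 genes in the Kit values was not tested.

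Flt3, the Flt3 ligand receptor, was the only member called lower with both targets, at very low counts. It had 22.6 and 18.0 normalized counts with sgRosa26 and 7.78 and 4.37 with sgSik3. Both sgSik3 libraries were below both controls (log2 fold change -1.62, SE 0.40, limma adjusted p = 0.0089), and the call was lost without e3 (adjusted p = 0.054) and with DESeq2 (0.084). In the Mef2c table it was 23.7 and 18.8 with sgRosa26 and 9.85 and 2.15 with sgMef2c. The sgMef2c guides differed from each other several-fold, and the call (-1.92, SE 0.60, adjusted p = 0.047) was lost in 8 alternatives, among them leaving out either sgRosa26 library (0.17 and 0.11) or guide 2 (0.14). The log2 fold change was -1.03 without guide 2 and -2.81 without guide 1. The sgMef2c libraries held 11 and 2 reads of Flt3, so counting error alone is large.

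**Figure D3:**
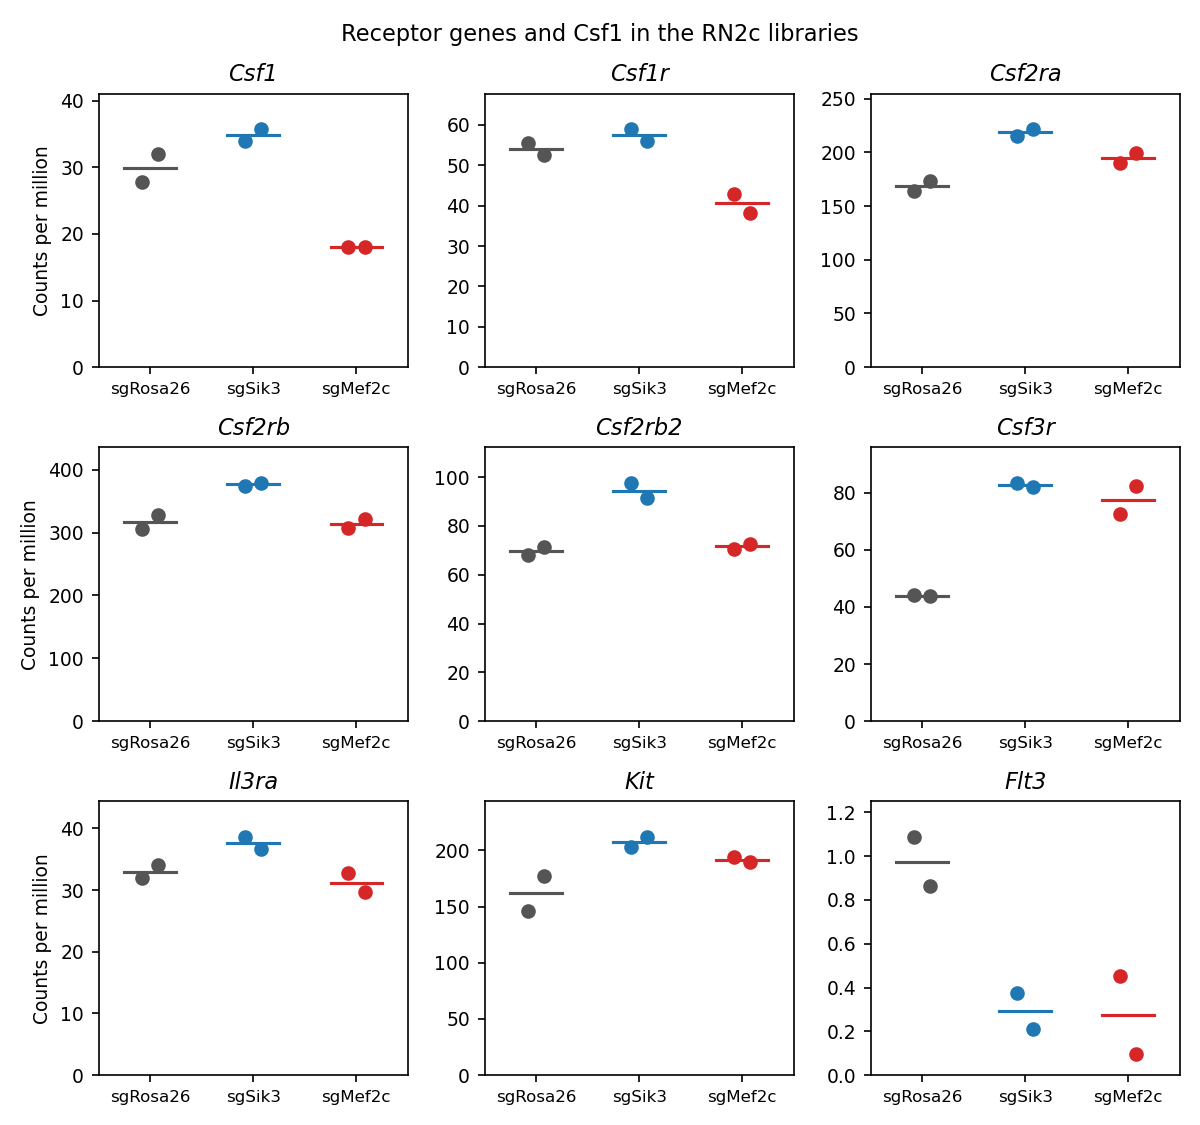
CPM (recovered reads scaled to library size, with TMM) of each gene in the 6 RN2c libraries, 2 libraries per guide target; points are libraries, bars are group means and each axis starts at 0. Csf3r is raised with both targets, Csf1 and Csf1r are lowest with sgMef2c, and Csf2rb and Csf2rb2 are highest with sgSik3.

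The sgMef2c and sgSik3 libraries were also compared with each other directly, with edgeR's quasi-likelihood test on recovered reads. Levels are given as CPM, reads scaled to library size over the 6 libraries together. Of the 9 members, 6 were lower with sgMef2c than with sgSik3 and none was higher, where 9.44% of all 10954 genes tested passed, 3.7% higher and 5.74% lower. The largest difference was that of Csf1, at 33.9 and 35.7 CPM with sgSik3 and 18.1 and 18.1 with sgMef2c (log2 difference -0.95, edgeR adjusted p = 0.00026). It held in each of the 9 alternatives tried. Csf1r was 57.5 ± 2.06 CPM (SD, n = 2) with sgSik3 and 40.5 ± 3.33 with sgMef2c (-0.51, adjusted p = 0.0025). Csf2rb2 was 94.4 ± 4.40 and 71.6 ± 1.59 (-0.41, adjusted p = 0.0018), and Csf2rb was 376 ± 2.83 and 314 ± 9.30 (-0.27, adjusted p = 0.0065). Il3ra (-0.27, adjusted p = 0.039) and Csf2ra (-0.18, adjusted p = 0.030) were closer to the threshold and were lost with DESeq2.

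The direct test did not separate the guide targets for the remaining members. Csf3r was 82.7 ± 0.905 CPM with sgSik3 and 77.6 ± 6.96 with sgMef2c (-0.10, edgeR adjusted p = 0.30). Kit was 207 ± 6.34 and 192 ± 3.28 (-0.12, adjusted p = 0.33), and Flt3 was 0.293 ± 0.116 and 0.276 ± 0.251 (-0.039, adjusted p = 0.98). Without sgMef2c guide 2, the Csf3r difference passed (-0.19, adjusted p = 0.048). The calls of the 6 members lower with sgMef2c depended on single libraries of both targets. Without e1 or e3 most of them were lost, as were most calls over all genes. Without sgMef2c guide 1 that of Csf2ra was lost, and without guide 2 that of Il3ra. In every alternative tried these members stayed lower with sgMef2c, from Csf1 (log2 difference -0.99 to -0.91) to Csf2ra (-0.21 to -0.14).

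For the 4 members with the widest range of group means over the RN2c groups, the genes of most similar pattern were looked up by Pearson r over the 6 RN2c libraries, on log2(CPM + 1). Csf1 was matched by Relb (r = 0.998) and Cltc (0.994), and Csf1r by Sat1 (0.995), Sgms1 (0.992) and Ugt1a7c (0.989). Csf3r was matched by Pxk, Cyld and Ccdc97, each with r above 0.999, and Flt3 by Limd1 (0.999), Pcsk4 (0.997) and Coa5 (0.995). These are among the best of 9620 genes searched (9621 for Flt3), over 6 libraries in 3 groups, so such values are descriptions only. The genes searched had a mean of at least 50 reads. Flt3 itself had between 2 and 24 reads in these libraries, so its pattern carries large counting error. The matches of Csf1 moved by less than it did: Relb averaged 5.52 CPM with sgRosa26, 6.18 with sgSik3 and 3.91 with sgMef2c, and Cltc 666, 674 and 627.

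The inhibitor comparisons asked what 2 hours of YKL-05-099 did to these genes. In RN2, none of 9 members passed, where 0.317% of all 10732 genes tested did, 0.0373% higher and 0.28% lower. By limma 34 genes were called over all, by edgeR 30 and by DESeq2 35, and none of these calls was a member. At an unadjusted p under 0.05, 0 members were counted with limma, 0 with DESeq2 and 1 with edgeR. Of all 10732 genes, 786 were counted with limma, 290 with DESeq2 and 772 with edgeR. The members' median log2 fold change was 0.12 against -0.00090 over all genes tested. In 4 members both treated libraries lay above both DMSO libraries, as did 18.1% of all genes, and none had both below, against 18.7%.

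Those 4 were receptor genes with small shifts. Csf1r was 606 and 648 with DMSO and 659 and 778 with YKL-05-099 (log2 fold change 0.19, 95% limma interval -0.0026 to 0.39, adjusted p = 0.68). Csf3r was 446 and 503 with DMSO and 516 and 533 with the inhibitor (0.15, 95% interval -0.040 to 0.33). The 2 groups were next to each other without overlap in both genes. Csf2rb was 4085 and 4160.0 with DMSO and 4289 and 4462 with the inhibitor, and Csf2rb2 was 819 and 849 with DMSO and 903 and 909 with the inhibitor. Their log2 fold changes were 0.086 and 0.12 (adjusted p = 0.69 and 0.74).

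The other 5 members overlapped between the RN2 groups. Csf1 was 246 and 334 with DMSO and 328 and 345 with the inhibitor, so the low value was DMSO replicate 1; without DMSO replicate 2 it passed (log2 fold change 0.45, adjusted p = 0.022), and with all libraries it did not (0.23, adjusted p = 0.79). Il3ra was 402 and 420.0 with DMSO and 389.7 and 521 with the inhibitor, below and above the controls. Csf2ra was 1622 and 1749 with DMSO and 1742 and 1675 with the inhibitor, Kit 2392 and 2524 against 2469.7 and 2613, and Flt3 43.0 and 54.0 against 42.8 and 48.9. In these 3 genes treated and control libraries were intermixed. Of 7 monocyte markers Irf8 fell in RN2 (from a mean of 2347.5 to 1833, adjusted p = 0.024), and no neutrophil marker passed.

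**Figure D4:**
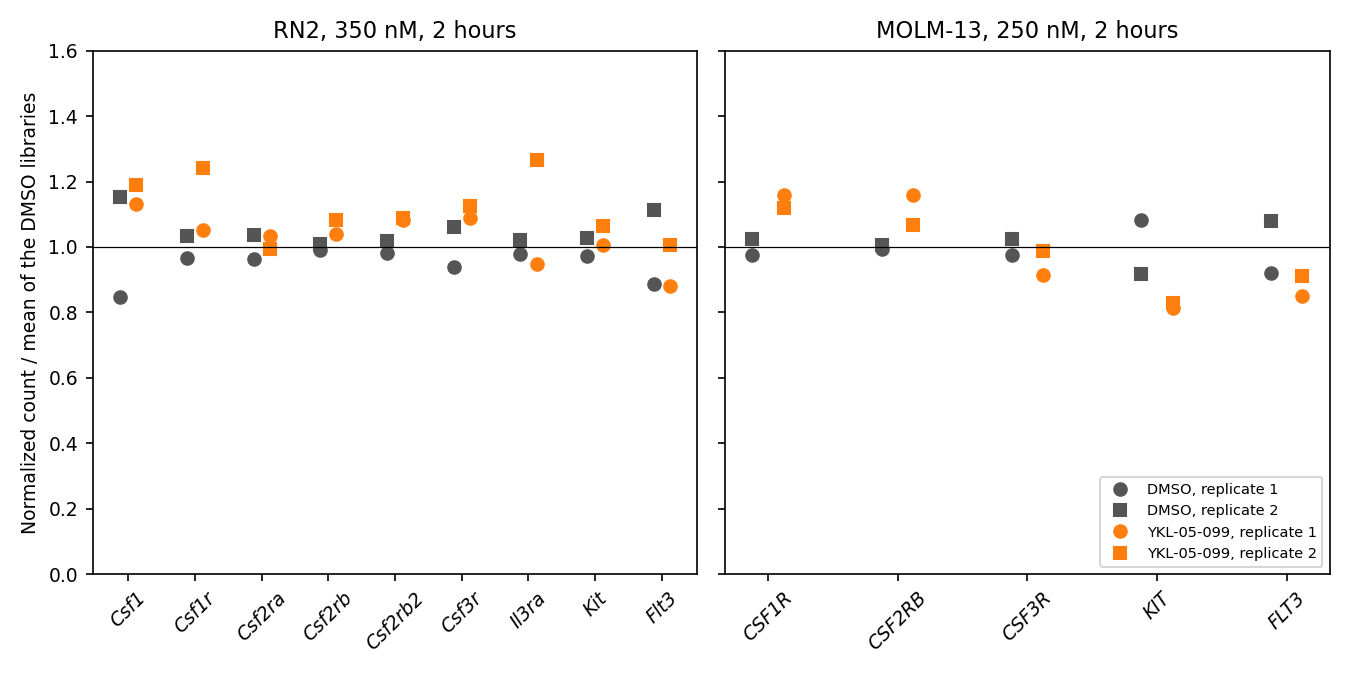
Normalized counts divided by the mean of the DMSO libraries, in RN2 (350 nM) and MOLM-13 (250 nM) after 2 hours; grey is DMSO, orange is YKL-05-099, and circles and squares are replicates 1 and 2, with the axis starting at 0. In RN2, Csf1r, Csf2rb, Csf2rb2 and Csf3r lie above DMSO in both treated libraries; in MOLM-13, CSF1R and CSF2RB lie above and KIT and FLT3 below.

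In MOLM-13, the 5 members with enough reads did not pass the test, where 0% of all 11361 genes tested passed. Limma and edgeR called 0 genes and DESeq2 called 7, while 144 genes had an unadjusted p under 0.05 in limma, none of them a member. CSF1 was not tested, with 2 and 9 reads in the DMSO libraries and 0 and 3 in the treated ones. Both treated libraries were above both controls for CSF1R and CSF2RB, as for 10.7% of all genes, and below for KIT and FLT3, as for 10.5%. The members' median was -0.074, against -0.00077 over all genes tested.

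CSF1R was 534 and 559 with DMSO and 634 and 611 with YKL-05-099 (log2 fold change 0.19, 95% limma interval -0.071 to 0.45). CSF2RB was 444 and 449 with DMSO and 518 and 477 with the inhibitor (0.15, 95% interval -0.12 to 0.43). These shifts were small but did not overlap the controls. CSF3R, at 3164 and 3324 with DMSO and 2962 and 3206 with the inhibitor, overlapped (-0.074, 95% interval -0.29 to 0.15). KIT was low, with 26.2 and 22.2 normalized counts with DMSO and 19.7 and 20.1 with the inhibitor (-0.27, 95% interval -0.97 to 0.43).

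FLT3 in MOLM-13 was 6994 and 8207 with DMSO and 6469 and 6931 with YKL-05-099. Both treated libraries were below both controls, and the control libraries differed from each other by more than the treated ones did (log2 fold change -0.18, 95% limma interval -0.43 to 0.071, adjusted p = 1.00). In RN2, the mouse gene had between 42.8 and 54.0 normalized counts. No comparison of height was made between the species, whose tables were scaled separately.

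Other genes of these pathways were taken as 5 lists of 65 genes, of which 48 passed the filter in each RN2c table and in RN2 and 49 in MOLM-13. With sgSik3, 24 of 48 were higher and 6 lower, where 23.9% of all genes were higher and 23.9% lower, and the lists' median log2 fold change was 0.12. With sgMef2c, 9 were higher and 9 lower (median 0.014), where 16.3% and 15.1% of all genes were, and with the inhibitor none passed the limma test in either line. The direct test of sgMef2c against sgSik3 had 1 of 48 higher and 10 lower, where 3.7% of all genes were higher and 5.74% lower.

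Most kinases and STAT proteins downstream of the cytokine receptors were higher with sgSik3. Of 12 tested, 10 were higher and 1 lower. Among them, Stat3 (log2 fold change 0.58, limma adjusted p = 6.0e-06), Syk (0.45) and the receptor-bound kinase Jak1 (0.30) rose, and Stat5a fell (-0.22, adjusted p = 0.0095). With sgMef2c, 5 were higher, among them Stat3 (0.43), Syk (0.26) and Jak3 (0.29), and 3 were lower, Stat5a, Lyn and Btk. Of 12 adaptor and RAS-PI3K genes, 6 were higher with sgSik3, by at most 0.21 (Pik3cd), and 2 were higher and 1 lower with sgMef2c. Of 13 feedback and turnover genes, 3 were higher with sgSik3, Cbl, Sh2b3 and the STAT5 target Cish (0.58), and 1 was lower, Adam17, a protease that sheds receptors including Csf1r (-0.30, adjusted p = 0.00014). Adam17 also fell with sgMef2c (-0.52, adjusted p = 0.00055), where Cbl was the gene that rose.

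Other cytokine and growth factor receptors were split in both knockouts. Of 10 tested, 5 were higher and 4 lower with sgSik3, and 1 was higher and 4 lower with sgMef2c. The interferon gamma receptor Ifngr1 rose with each (0.45 and 0.39), and Il6st, Il6ra, Il7r and Ghr fell with each, Il6st by 0.75 and 0.73 on the log2 scale. Of 10 ligand genes other than Csf1, 1 passed the filter and it did not pass the test with either target, so Csf1 was the one ligand called.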

How the data were processed

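The deposited tables hold a signal on a linear scale, read counts divided by each library's DESeq2 size factor. The submitters' processing notes name HISAT2 and featureCounts, and the builds hg19 and mm10; versions, strand setting and the handling of reads that match several genes are not given in the sources. The authors scaled each of the 4 tables separately. Dividing by the size factor's step gave whole reads within 0.001 for all values. limma 3.58.1 (R 4.3.3, two-sided, with a mean-variance trend) was run on log2(value + 1) of genes with a mean of at least 10, adjusted by Benjamini-Hochberg over each table; this scale understates changes of low genes. The direct knockout test used edgeR 4.0.16 with TMM on the recovered reads. Alternatives were pseudocounts of 0.5 and 5, no filter or a mean of 50, no trend, TMM or quantile scaling, edgeR, DESeq2 1.42.0, the replicate number as a block, and each library left out. Libraries within a group differed beyond sampling noise (chi-square per degree of freedom 1.71 to 14.4), so each counts once. Exon lengths came from GENCODE on GRCm38, the assembly of mm10. All members are named, with up to 4 genes of lowest p per pathway list; other genes named were chosen after their values were seen. A few genes that this rule would name are not reported here. Members and lists were chosen with earlier results of these data known. Scripts were tested on simulated data.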

Additional observations from a re-analysis of the deposited data

How the results depend on the processing

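Over 41 member results and 513 alternatives, 459 kept their direction and side of the threshold, 39 lost the call, 6 gained it and 9 changed sign. With sgSik3, genes called went from 5226 to 4007 without a mean-variance trend and 3532 with DESeq2. Members called went from 8 to 5 without the trend and 5 with DESeq2. With sgMef2c, genes called went from 3442 to 1628 without the trend and 2255 with DESeq2, and ranged from 1815 to 3138 leaving out a library; members called went from 5 to 3 without the trend and ranged from 3 to 5. RN2 calls went from 34 to 3 with no filter, 0 without the trend and 19 with quantile normalization, and ranged from 28 to 321 leaving out a library, with 0 to 1 members. MOLM-13 calls went from 0 to 7 with DESeq2 and ranged from 14 to 20 leaving out a library. The direct test went from 1034 to 606 with DESeq2 and ranged from 50 to 1152, with 1 to 6 members. Changes of sign came from leaving out 1 library, in results that had not passed: RN2 Csf2ra (-0.034 to 0.074), Flt3 (-0.24 to 0.085) and Il3ra (-0.076 to 0.34), sgMef2c Csf2rb (-0.063 to 0.038) and the direct Flt3 difference (-1.54 to 0.59). The cause was not tested. A fit without 1 library assumes that the lone library left in its group varies like the other group.

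The RN2 and MOLM-13 groups share replicate numbers with their controls, and the sgMef2c guide numbers match those of the sgRosa26 replicates; nothing in the labels says that they pair samples. Deviations of same-numbered libraries correlated at 0.22 in RN2, 0.53 in MOLM-13 and 0.051 with sgMef2c, over genes and with 2 numbers each. With the replicate number as a block, 499 genes passed in RN2 (0 members), 290 in MOLM-13 (1 member, FLT3, adjusted p = 0.0032) and 3905 with sgMef2c (6 members, Kit being added at 0.0088). At these depths Flt3 in mouse and KIT and CSF1 in MOLM-13 have few reads, which limits what could be detected.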
